A study of Bos taurus with 6 samples.

Results

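Caveolins and cavins build the coat of caveolae, and 8 genes of this coat were followed in bovine primordial follicles (PMF) before and after 16 h of culture: the caveolins CAV1, CAV2 and CAV3, the cavins CAVIN1, CAVIN2 and CAVIN3, and the membrane-shaping proteins EHD2 and PACSIN2. They are 8 of 23704 genes obtained by summing RefSeq transcripts to gene symbols. The family was chosen by its function, but it was proposed with the CAV1 difference between T16 and T0 already known. The values of all 8 genes in that contrast are therefore a description, and the same holds for every count over them.

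The RNA-seq series holds 6 libraries of pooled, mechanically isolated PMF, each an oocyte with its layer of flat pre-granulosa cells, from ovaries of young Holstein Friesian dairy cows collected at an abattoir. The 3 T0 libraries were taken after isolation and, by the study's methods for isolated follicles, a short recovery in αMEM-based medium with albumin, insulin, transferrin, selenite and FSH. The 3 T16 libraries came from PMF kept for 16 h in culture, whose medium and supports are not described in the sources used here. The libraries are named biological replicates, but whether the pools came from separate animals is not stated, so that a p-value measures the spread between pools. As the pools are bulk samples, more RNA of a gene per cell and more cells of a type that expresses it cannot be told apart.

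Caveolae are flask-shaped pits of the plasma membrane, rich in cholesterol and sphingolipids, that bend under tension, buffer membrane stretch and hold receptors and lipid transporters. Caveolins insert into the membrane as oligomers, and cavins assemble around them from the cytosol. Both are needed for the pit to form, and EHD2 and PACSIN2 act at its neck. Endothelium, smooth muscle, adipocytes and fibroblasts are the cell types best known for caveolae.

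Depth was 22174653 to 36703016 estimated counts per library, of which 89.1 to 90.3% belonged to transcripts matched to a gene. The pools were uneven in cell makeup: the summed TPM (transcript abundance scaled to transcript length and library depth) of 12 oocyte markers ran from 449 to 2608 at T0 and from 76.5 to 1757 at T16, with T0 replicate 1 and T16 replicate 2 lowest in their groups. The same 2 libraries were highest in the summed TPM of 10 granulosa markers, at 9589 and 8605, mostly the keratins KRT8 and KRT18. Of the 10 granulosa markers, 3 were lower in every T16 library than in any T0 library (10.6% of all genes tested were). These were the transcription factor FOXL2, the ligand WNT6 and LGR5. None was higher in every T16 library (13.2% of all genes were). The rest overlapped, among them the ligand KITLG, with a mean of 47.1 TPM at T0 and 68.8 TPM at T16.

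CAV1, the principal caveolin, on which caveolae outside striated muscle depend, was the coat gene that differed most between T0 and T16. It stood at 10.2, 11.4 and 7.79 TPM in T0 replicates 1, 2 and 3, and at 927, 365 and 477 TPM in T16 replicates 1, 2 and 3. The lowest T16 library lay far above the highest T0 library, and the spread among the T0 libraries was small. The mean of the 3 T0 libraries was 9.79 TPM with an SD of 1.85 and that of the 3 T16 libraries was 589.8 TPM with an SD of 297, which is 60.3 times as much. These levels rested on 387, 523 and 267 estimated counts at T0 and on 35900, 12431 and 27565 at T16. By mean TPM, CAV1 ranked 8414 at T0 and 243 at T16 among the 14639 genes that passed the count filter.

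**Figure D1:**
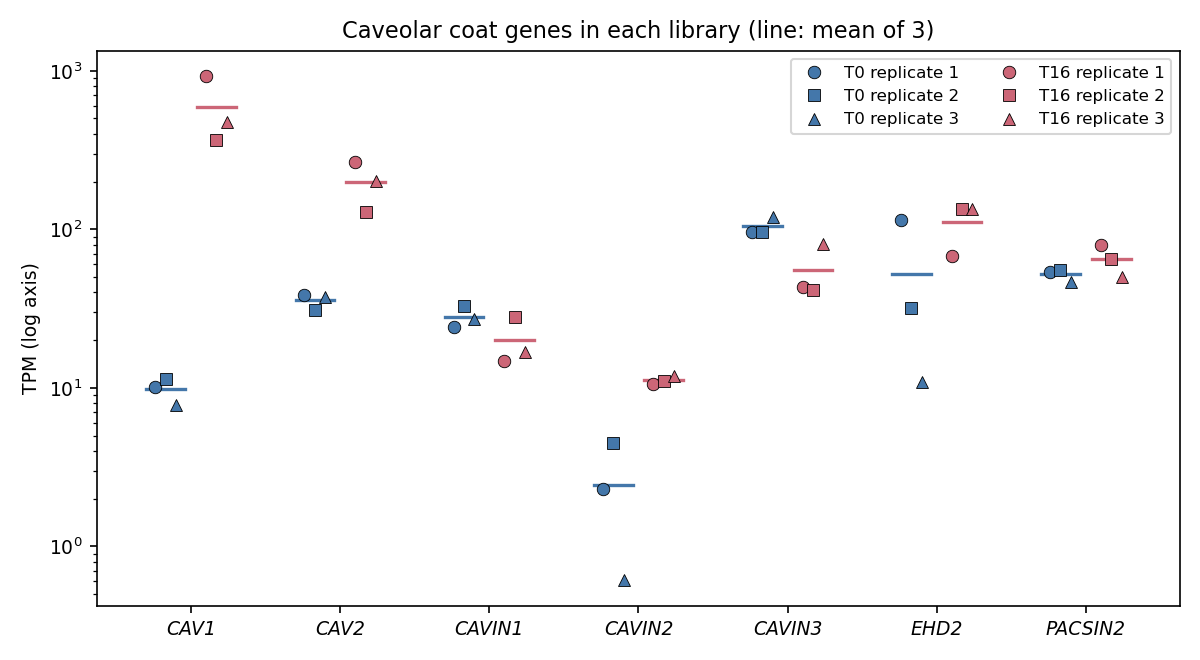
TPM of the 7 coat genes with reads, on a log axis, in each T0 library (blue) and each T16 library (red), with symbols for the replicate number and a line at the mean of 3. CAV1, CAV2 and CAVIN2 show red points wholly above blue ones, whereas the points of CAVIN1, EHD2 and PACSIN2 overlap. CAV3 had no read and is not drawn.

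In the edgeR quasi-likelihood fit over all genes, the CAV1 log2 fold change of T16 over T0 was 5.99 ± 0.53 (SE), with a false discovery rate (FDR, the Benjamini-Hochberg adjusted p) of 0.0319. CAV1 kept its FDR below 0.05 without T16 replicate 1 (0.0356). When T0 replicate 1, 2 or 3 was left out, the FDR became 0.0634, 0.208 or 0.122, and when T16 replicate 2 or 3 was left out, it became 0.0522 or 0.273, while the log2 fold change stayed between 5.54 and 6.26 in these 6 fits. With the 2 libraries lowest in oocyte markers left out together, it was 6.39 with an edgeR FDR of 0.0982.

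CAV2, which forms hetero-oligomers with CAV1 and needs it to reach the cell surface, was at 38.3, 30.8 and 37.7 TPM at T0. At T16 it was at 264, 129 and 202 TPM, again with no overlap between the groups. Mean CAV2 was 35.6 TPM (SD 4.17, n = 3) before and 198 TPM (SD 67.9, n = 3) after culture, a ratio of 5.57, and its log2 fold change was 2.58 ± 0.47 (SE). The edgeR FDR of CAV2 was 0.0921 and that of DESeq2 was 2.14e-05. Its transcript model is short, at 489 bases, so that its TPM rested on fewer counts than CAV1, 177 to 199 at T0 and 600 to 1622 at T16. CAV3, the caveolin of striated muscle, had 0 counts in all 6 libraries, which allows a level of up to 0.0817 to 0.135 CPM (counts scaled to the library total) given 3 counts in each library.

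On TPM, the order of CAV1 and CAV2 was reversed between the groups. At T0, CAV1 had a lower TPM than CAV2 in every library, with CAV1 to CAV2 ratios of TPM of 0.265, 0.371 and 0.207. Estimated counts at T0 had the other order, at 387, 523 and 267 for CAV1 and 199, 198 and 177 for CAV2. The order at T0 thus depends on the scaling by length, with the CAV2 model at 489 bases. At T16 the ratios were 3.51, 2.84 and 2.36. CAV1 thus made up 20.9, 27.1 and 17.1% of the caveolin TPM at T0 and 77.8, 73.9 and 70.3% at T16. T16 replicate 1 was highest, replicate 3 next and replicate 2 lowest for both caveolins, and the oocyte marker sum had the same order in these 3 libraries. The mesothelium sum (241, 34.5 and 240 TPM) and the immune sum (20.7, 2.62 and 6.48 TPM) had that order at T16 too. The granulosa, endothelial, and smooth muscle and pericyte sums had its reverse. At T0 the order of the oocyte sum was that of neither caveolin. There the oocyte marker sum was 449, 1793 and 2608 TPM in replicates 1, 2 and 3, while CAV1 was highest in replicate 2 and CAV2 in replicate 1. The part of the oocyte share, or of any other cell type, in the CAV1 and CAV2 values was not tested.

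The cavins lay on both sides of 0 in log2 fold change. CAVIN1, the cavin without which caveolae do not form, was at 24.1, 32.8 and 27.0 TPM at T0 and at 14.7, 28.2 and 16.7 TPM at T16. The groups overlapped, and the log2 fold change was -0.35 ± 0.36 (SE; edgeR FDR 0.749). CAVIN3, also known as PRKCDBP, which binds protein kinase C delta and assists caveola trafficking, was the most abundant coat gene at T0, at 96.4, 96.0 and 120.3 TPM. At T16 it was at 43.3, 41.4 and 80.5 TPM, below every T0 library on TPM though overlapping on CPM with TMM scaling (edgeR's trimmed mean of M-values), and its log2 fold change was -0.74 ± 0.44 (SE; edgeR FDR 0.53).

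CAVIN2, a cavin that helps to curve the membrane, had a positive log2 fold change. It was at 2.29, 4.46 and 0.609 TPM at T0 and at 10.6, 11.1 and 11.9 TPM at T16, on 28 to 273 counts and 503 to 921 counts. The T16 libraries were close together and above all T0 libraries, which varied widely. Mean CAVIN2 was 2.45 TPM (SD 1.93, n = 3) at T0 and 11.2 TPM (SD 0.684, n = 3) at T16, with a log2 fold change of 2.31 ± 0.77 (SE; edgeR FDR 0.24, DESeq2 FDR 0.038). It remained the scarcest coat gene with reads in both groups, and its share of the cavin TPM was 1.87, 3.35 and 0.412% at T0 and 15.4, 13.7 and 10.9% at T16.

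EHD2, an ATPase whose rings steady the caveola neck at the cell surface, varied most among the T0 libraries. It was at 114, 31.8 and 10.9 TPM at T0 and at 68.1, 134 and 134 TPM at T16, and the groups overlapped, as T0 replicate 1 lay above T16 replicate 1. Its log2 fold change was 1.13 ± 0.86 (SE; edgeR FDR 0.646), which became 2.62 when T0 replicate 1 was left out and 0.67 when T0 replicate 3 was. At T0 the EHD2 order, replicate 1, then 2, then 3, was also the order of the summed granulosa markers (9589, 4245 and 1337 TPM) and of the summed stroma markers (2940, 1310 and 1184 TPM). Within the granulosa list, KRT8, KRT18, GATA4 and NR5A2 had that order at T0. FOXL2, WNT6, AMH, INHA and LGR5 were highest in T0 replicate 2 instead, and KITLG was lowest there. The summed endothelial markers (394, 247 and 24.0 TPM) and the summed smooth muscle and pericyte markers (443, 337 and 115 TPM) had the EHD2 order at T0 too. Of the endothelial markers, CLDN5, KDR and ESAM had it, the others did not, and TEK and TIE1 had its reverse. Of the smooth muscle and pericyte markers, TAGLN, CNN1, MCAM and CSPG4 had it. ACTA2, MYH11, RGS5 and NOTCH3 were highest in T0 replicate 2, and DES was lowest there. Of the stroma markers, COL1A1, COL1A2, LUM and PDGFRA had it. COL3A1 and POSTN were lowest in T0 replicate 2, and DCN and TCF21 in replicate 1. The part of these cell types in the EHD2 values was not tested. PACSIN2, an F-BAR protein that bends membrane as caveolae form, had the smallest standard error, with 54.0, 55.5 and 46.6 TPM at T0 and 80.0, 65.3 and 49.9 TPM at T16. Its log2 fold change was 0.41 ± 0.29 (SE; edgeR FDR 0.615), with overlap on TPM but not on TMM-scaled CPM.

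**Figure D2:**
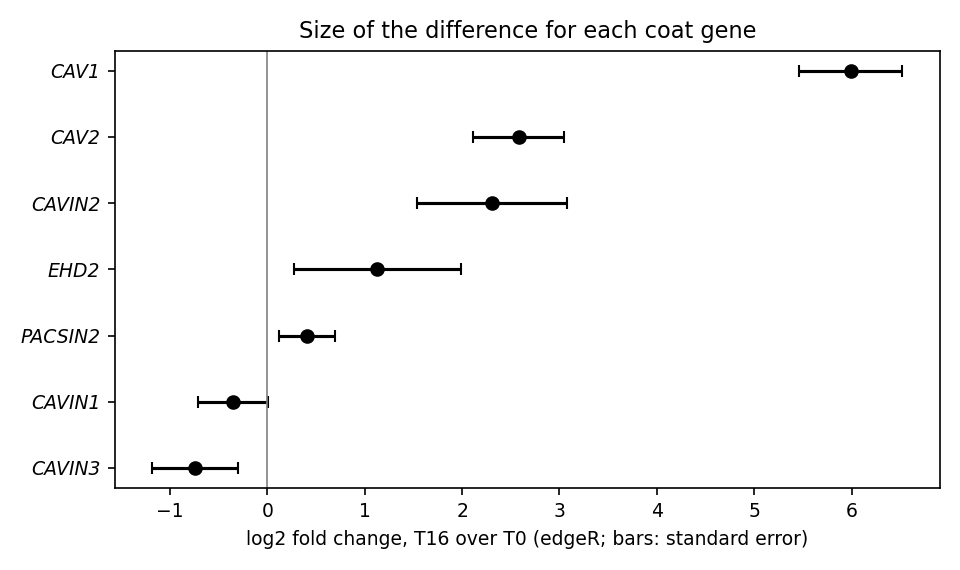
Log2 fold change of T16 over T0 from edgeR for the 7 coat genes tested, with bars of 1 standard error. CAV1 stands apart at 5.99, CAV2 and CAVIN2 lie at 2.58 and 2.31, and CAVIN1 and CAVIN3 lie below 0 at -0.35 and -0.74.

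By count, 7 of the 8 coat genes had enough reads to be tested, and CAV3 did not. At an edgeR FDR below 0.05, 1 of the 7 passed, CAV1, against 0.041% of all 14639 genes tested. DESeq2 passed 3 of 7, CAV1, CAV2 and CAVIN2, against 7.22% of the 14232 genes to which it gave an adjusted p. Every T16 library lay above every T0 library on TMM-scaled CPM for 4 of 7, CAV1, CAV2, CAVIN2 and PACSIN2, against 13.2% of all genes, and 0 of 7 lay wholly below, against 10.6%. The median log2 fold change was 1.13 over the 7 genes and -0.08 over all genes tested. Since CAV1 led to the choice of the family, nothing is read from these counts.

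The order of the levels was different in the 2 groups. At T0 the mean TPM fell from CAVIN3 through EHD2, PACSIN2, CAV2, CAVIN1 and CAV1 to CAVIN2. Neighbours in that order with overlapping libraries were CAVIN3 and EHD2, EHD2 and PACSIN2, and CAV2 and CAVIN1. At T16 the order was CAV1, CAV2, EHD2, PACSIN2, CAVIN3, CAVIN1 and CAVIN2. There the libraries overlapped between CAV2 and EHD2, between EHD2 and PACSIN2, and between PACSIN2 and CAVIN3.

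The makeup of the coat transcripts also differed between the groups. The caveolins summed to 48.5, 42.2 and 45.5 TPM at T0 and to 1192, 494 and 679 TPM at T16. The cavins summed to 123, 133 and 148 TPM at T0 and to 68.6, 80.6 and 109 TPM at T16, without overlap on that scale. On TMM-scaled CPM the cavin sums overlapped, at 136, 136 and 123 at T0 and 82.4, 118 and 140.4 at T16. Caveolin transcript per cavin transcript was 0.395, 0.317 and 0.307 at T0 and 17.4, 6.13 and 6.21 at T16. CAV1 alone took 3.00, 4.35 and 3.10% of the TPM of all coat genes at T0 and 65.8, 47.2 and 49.1% at T16.

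**Figure D3:**
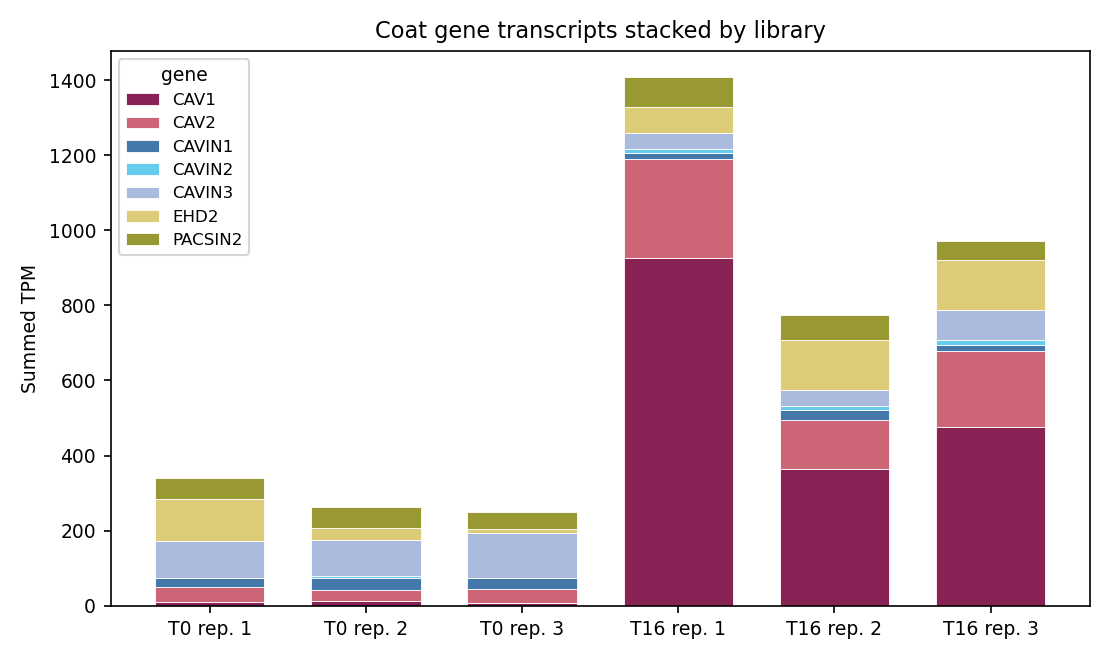
Summed TPM of the coat genes in each library, stacked by gene. The bars reach 251 to 339 TPM at T0, where CAVIN3 takes a large part, and 774 to 1408 TPM at T16, where CAV1 and CAV2 (dark and light red) fill most of each bar.

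CAV1, CAVIN1 and PACSIN2 each had several transcript models with at least 10% of the gene's TPM in some library, 9 models in all, and the shares of these within their gene were compared by exact two-sided permutation tests. With 3 libraries against 3, the smallest p possible is 0.1, so no share could pass 0.05. For CAV1 the leading model was XM_024990412.1, with 46.9, 85.0 and 95.2% of the gene's TPM at T0 and 81.3, 83.1 and 74.4% at T16. The model XM_005205392.4 was listed at 0 in all T0 libraries and at 7.21, 5.21 and 12.0% at T16 (exact permutation p = 0.1, 0.75 adjusted over the 9 models). All 4 CAV1 models are 2455 to 2493 bases long, and the leading one was the same in all 6 libraries. In PACSIN2 the shares varied as much within a group as between groups: NM_001046468.1 held 56.6, 47.3 and 10.7% at T0 and 25.6, 60.1 and 80.2% at T16.

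CAV1 and CAV2 lie next to each other in the RefSeq gene table, and their neighbours were examined after the values were seen. In the order of that table, ST7, CAPZA2, MET, CAV1, CAV2 and TES form an unbroken run of protein-coding genes, in each of which every T16 library lay above every T0 library. MET, the receptor of hepatocyte growth factor, was at 7.69, 5.64 and 5.99 TPM at T0 and 27.9, 17.2 and 19.0 TPM at T16, with a log2 fold change of 1.83 ± 0.36 (SE; edgeR FDR 0.107). TES, which encodes the focal adhesion protein testin, was at 107, 60.2 and 48.3 TPM at T0 and 316, 156 and 160.2 TPM at T16, with a log2 fold change of 1.59 ± 0.48 (SE; edgeR FDR 0.203). The log2 fold changes were 1.37 ± 0.35 for ST7 and 0.97 ± 0.36 (SE) for CAPZA2, a subunit of the actin capping protein, so that all 4 were smaller than that of CAV2.

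The run ended on both sides. WNT2, before ST7, had counts in 1 library only, and TFEC, after TES, had 1 count in all. MDFIC, beyond TFEC, had a log2 fold change of -0.69 ± 0.64 (SE) with overlapping groups. Of the 8 coding neighbours on each side, 11 of 16 were tested: 4 lay above on TMM-scaled CPM (13.2% of all genes did) and 2 below (10.6%), 0 passed an edgeR FDR of 0.05 (0.041%) and 4 passed that of DESeq2 (7.22%). The 2 below were CTTNBP2 and TARP, and the 4 passed by DESeq2 were ST7, MET, TES and CTTNBP2.

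**Figure D4:**
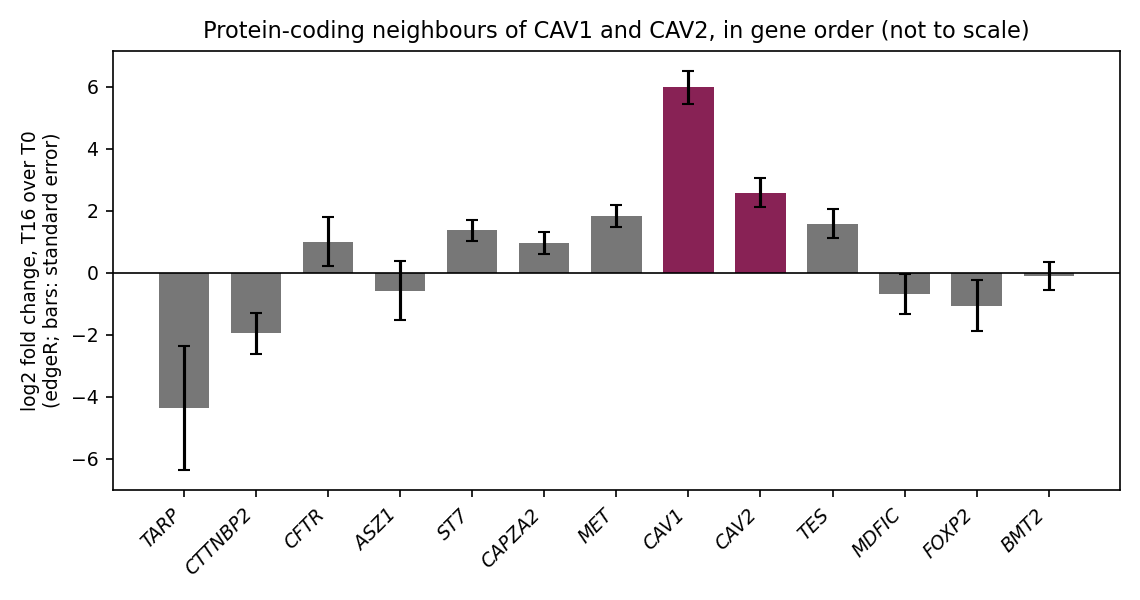
Log2 fold change of T16 over T0 from edgeR, with bars of 1 standard error, for CAV1 and CAV2 (purple) and those of their 16 nearest coding neighbours that were tested (grey), in gene order and not to scale. Bars are above 0 from ST7 to TES, with the highest at CAV1, and MDFIC and ASZ1 on either side lie below 0 within overlapping groups.

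The strand of the libraries is not stated, so reads of overlapping genes cannot be told apart. In the gene table the non-coding LOC132345093 overlaps CAV1, OXTR overlaps CAV3, and LOC132342871 overlaps EHD2. Their part in the CAV1 and EHD2 values was not tested.

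The genes most like CAV1 in pattern were sought by the root mean square difference of log2 CPM, centred on each gene's mean over the 6 libraries. The nearest 5 were MIR222 (0.226), PTH2R (0.241), P2RY1 (0.427), F2RL3 (0.468) and EREG (0.472), against 1.73 for CAV2. All 5 had at most 2 counts over the T0 libraries together. Their edgeR log2 fold changes were 8.11 to 10.86 (SE 1.21 to 1.53; edgeR FDR 0.0838 to 0.0987), beside 5.99 for CAV1. These genes passed the count filter through the T16 libraries alone. Their fold changes rest on T0 counts near 0, so their sizes cannot be compared with that of CAV1. The log2 CPM had a prior count of 2 added, so a small distance here does not mean an equal fold change. PTH2R, P2RY1 and F2RL3 encode G protein-coupled receptors, and EREG encodes the EGF receptor ligand epiregulin. EREG was at 10.1, 3.16 and 3.76 TPM at T16, on 999 counts, and F2RL3 was at 16.9, 4.63 and 5.69 TPM on 702 counts. CAV1 itself had 1177 counts over the 3 T0 libraries.

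The genes most like CAV2 were SPAG1 (0.192), PSAT1 (0.205), ITPRID2 (0.21), WDR43 (0.216) and SPRTN (0.218). PSAT1, the serine synthesis enzyme phosphoserine aminotransferase, was at 45.5, 30.2 and 42.6 TPM at T0 and 222, 122 and 258 TPM at T16. WDR43, a factor of ribosome biogenesis, was at 57.5, 54.3 and 60.7 TPM at T0 and 417, 166 and 226 TPM at T16. The 5 genes had log2 fold changes of 2.32 to 2.73, beside 2.58 for CAV2. As they were picked for the smallest distance over the same 6 libraries, this closeness follows from the selection.

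Around the coat, 60 further genes in 5 lists were counted: relatives of the coat genes, trafficking partners, cargo, other endocytic coats and cholesterol supply. Of these, 56 were tested, 0 passed an edgeR FDR of 0.05, 11 had an unadjusted edgeR p below 0.05 (13.8% of all genes tested did) and 7 passed the FDR of DESeq2 (7.22% of all genes). On TMM-scaled CPM, 7 of the 56 lay wholly above and 9 wholly below, beside 13.2% and 10.6% of all genes. The coat's relatives, EHD1, EHD3, EHD4, CAVIN4 and PACSIN3, had a median log2 fold change of -0.11, and all 5 overlapped between groups. EHD1, which recycles endosomal cargo, was the most abundant of them, at 102, 58.4 and 30.0 TPM at T0 and 32.1, 69.2 and 64.1 TPM at T16.

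Among 10 genes that move caveolae or travel with them, the median log2 fold change was 0.09, with 1 wholly above and 2 wholly below (13.2% and 10.6% of all genes). Filamin A (FLNA), which ties caveolae to actin, was the most abundant, at 205, 92.8 and 38.4 TPM at T0 and 150.3, 256 and 125 TPM at T16. DNM1, a dynamin, was at 8.56, 22.2 and 15.8 TPM at T0 and at 1.99, 1.19 and 2.47 TPM at T16, a log2 fold change of -2.82 ± 0.59 (SE; edgeR FDR 0.107, DESeq2 FDR 0.000117). Its widely expressed relative DNM2, at 39.5 to 76.7 TPM at T0 and 46.6 to 98.6 TPM at T16, overlapped between groups.

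Cargo and lipid partners split in direction: of 15 tested, 4 lay wholly above and 4 wholly below (13.2% and 10.6% of all genes), with a median log2 fold change of -0.19. SLC7A1, an arginine transporter, was at 19.0, 14.8 and 15.0 TPM at T0 and 86.4, 50.7 and 53.5 TPM at T16, with 1.99 ± 0.37 (SE; edgeR FDR 0.0966). TGFBR2, a TGF-beta receptor, had 1.70 ± 0.56 (SE; edgeR FDR 0.238). In the other direction, PTCH1, the hedgehog receptor, was at 7.53, 12.1 and 4.49 TPM at T0 and 2.09, 2.21 and 1.75 TPM at T16, with -1.93 ± 0.50 (SE; edgeR FDR 0.147). DESeq2 gave an FDR of 0.000232 for SLC7A1 and 0.0032 for PTCH1.

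Flotillins and the clathrin coat serve other routes of uptake, and of 15 genes 1 lay wholly above and 2 wholly below (13.2% and 10.6% of all genes), with a median log2 fold change of -0.16. FLOT2 was at 55.1, 52.3 and 46.7 TPM at T0 and 14.0, 26.7 and 11.6 TPM at T16, with -1.49 ± 0.41 (SE; edgeR FDR 0.167, DESeq2 FDR 0.0129). FLOT1 was at 85.5, 85.6 and 54.4 TPM at T0 and 30.2, 41.1 and 32.0 TPM at T16, with -1.04 ± 0.36 (SE; edgeR FDR 0.257). Both flotillins, scaffold proteins of membrane domains, were thus on the other side of 0 from the caveolins. The clathrin light chain CLTB had 0.60 ± 0.32 (SE; edgeR FDR 0.486), and the adaptor subunit AP2M1, the most abundant of the list, was at 292 to 620.4 TPM at T16 and 357 to 558 TPM at T0.

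Of 11 genes of cholesterol supply tested, 1 lay wholly above and 1 wholly below (13.2% and 10.6% of all genes), with a median log2 fold change of 0.62. NPC2, which carries cholesterol out of lysosomes, was the most abundant, at 98.9, 123 and 115 TPM at T0 and 27.4, 80.0 and 56.0 TPM at T16, with -0.92 ± 0.45 (SE; edgeR FDR 0.424).

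Markers of cell types rich in caveolae were measured beside the coat genes. The 10 endothelial markers summed to 394, 247 and 24.0 TPM at T0 and to 34.1, 53.8 and 34.9 TPM at T16. Of these, 8 were tested, with 1 wholly above and 0 wholly below (13.2% and 10.6% of all genes). The tight junction gene CLDN5 was the largest part of the sum in the T0 libraries, at 382, 228 and 13.6 TPM, and was at 4.36, 31.3 and 16.9 TPM at T16. Listed at 0 were 1, 1 and 3 of the 10 markers in T0 replicates 1, 2 and 3, and 4, 3 and 2 in those of T16. At T0, PECAM1 was at 0.602, 6.57 and 0 TPM, CDH5 at 0.877, 0 and 0.0252 TPM, VWF at 5.02, 1.77 and 2.02 TPM and the receptor TEK at 1.65, 6.66 and 6.86 TPM. At T16, PECAM1 was at 0, 0.843 and 0.588 TPM, CDH5 at 0, 0.596 and 1.53 TPM, VWF at 1.65, 6.10 and 2.21 TPM and TEK at 8.18, 0.211 and 0.151 TPM. ESAM, an endothelial adhesion molecule, was the 1 endothelial marker wholly above, at 0.935, 0.564 and 0.0793 TPM at T0 and 17.8, 14.7 and 12.9 TPM at T16. The part of endothelial cells in the coat gene values was not tested.

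The 9 smooth muscle and pericyte markers summed to 443, 337 and 115 TPM at T0 and to 31.3, 119 and 58.0 TPM at T16. Of these, 8 were tested, with 0 wholly above and 3 wholly below (13.2% and 10.6% of all genes). The 3 below were ACTA2, MYH11 and NOTCH3. CSPG4 overlapped, with a higher mean at T16 (3.57 TPM, 9.73 in replicate 2) than at T0 (0.659 TPM). In T16 replicate 1, ACTA2 and MYH11 were at 0, while CNN1 was at 13.03, MCAM at 7.30, TAGLN at 5.72 and DES at 4.53 TPM. Their part in the coat gene values was not tested either. The sum of the 8 stroma markers overlapped, at 1184 to 2940 TPM at T0 and 276 to 1734 TPM at T16. Of these 8 markers, 0 lay wholly above and 2 wholly below, DCN and POSTN (13.2% and 10.6% of all genes). Mesothelium markers were at 70.3 to 225 TPM at T0 and 34.5 to 241 TPM at T16. The adipocyte sum was at most 4.70 TPM in any library with ADIPOQ at 0 throughout, the striated muscle sum at most 1.54 TPM, and the immune sum at 1.36 to 7.59 TPM at T0 and 2.62 to 20.7 TPM at T16. None of these 6 sums was higher in every T16 library than in every T0 library. Of the 5 mesothelium markers, 0 lay wholly above and 2 wholly below, MSLN and CALB2 (13.2% and 10.6% of all genes). Of 2 adipocyte markers tested, 0 lay wholly above and 1 wholly below, CIDEC. Of 3 immune markers tested, 1 lay wholly above, CD68, and 0 wholly below. CD68 was at 0, 0 and 0.838 TPM at T0 and 14.2, 1.00 and 5.51 TPM at T16.

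**Figure D5:**
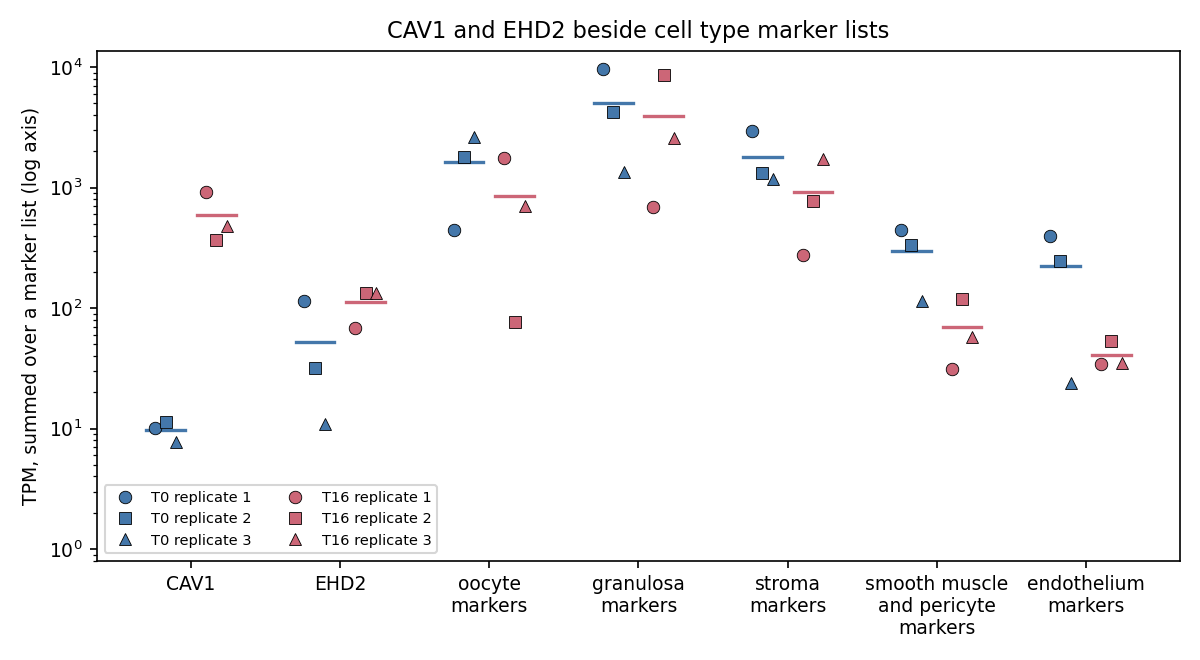
TPM of CAV1 and EHD2 and summed TPM of marker lists, on a log axis, in each T0 library (blue) and each T16 library (red), with a line at the mean of 3. CAV1 separates the groups, while the oocyte, granulosa and stroma sums overlap and the smooth muscle and endothelium sums lie lower in most T16 libraries than in T0 replicates 1 and 2.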

How the data were processed

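The authors trimmed the reads, mapped them with Salmon to the bovine RefSeq transcriptome of ARS-UCD1.3 and deposited 1 table per library, with estimated counts, TPM and effective length for each transcript. cDNA was made with the SMART-Seq v4 kit. From these tables, 50205 of 76123 transcripts (66.0%) were matched to symbols by accession in the RefSeq gene table (assembly ARS-UCD2.0, used for names and gene order alone), and the deposited values (estimated counts, TPM) were added up over the transcripts of each of 23704 genes. Rounded counts of 14639 genes, each reaching 10 counts in 3 or more libraries, were fitted with edgeR 4.0.16 (TMM, quasi-likelihood test, R 4.3.3), with T0 against T16 as the only term and Benjamini-Hochberg adjustment over all genes. The SE is the log2 fold change divided by the square root of the F statistic. DESeq2 1.42.0 and limma 3.58.1 on log2(TPM + 1) and log2(TPM + 0.1), other filters and scalings, the replicate number as a block and each library left out were alternatives. DESeq2 gave 407 genes no adjusted p. Effective length entered 1 alternative as an offset. A floor is 3 counts, for counting error only.

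The members and lists were chosen with earlier results of these data known. Named from each list were its most abundant gene and up to 4 genes without overlap between groups and with at least 1 TPM in a group, by unadjusted p. The single cell type markers, the neighbours of CAV1 and CAV2, DNM2 and the other relatives of the coat genes were named after their values were seen. Between libraries of the same replicate number, the correlation of deviations from group means was -0.445, -0.121 and -0.00469 for replicates 1, 2 and 3. With 3 libraries a group and pools uneven in cell makeup, this cannot decide whether the numbers pair libraries. The main fit did not treat them as pairs. In simulated data, each gene had its mean over all 6 libraries, with the depths of the libraries and the gene's spread from the edgeR fit. The group means of T0 and T16 were not used, and each change was split evenly around the mean. The 3 sizes of change set were 4-fold (67 genes), 16-fold (67) and 64-fold (66). Of these, edgeR recovered 6, 45 and 58, with 2 unchanged genes called, and DESeq2 34, 60 and 63, with 102 unchanged genes called, among 14077 genes. Some listed genes that this rule names are not reported here. A planned search of promoters for motifs was not run, because no sequence table was used here.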

Additional observations from a re-analysis of the deposited data

How the results depend on the processing

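No coat gene changed direction in any of 15 alternatives. Log2 fold changes ranged from 5.54 to 6.39 for CAV1, 2.34 to 2.99 for CAV2, 1.80 to 2.96 for CAVIN2, -0.62 to -0.23 for CAVIN1, -1.30 to -0.50 for CAVIN3, 0.67 to 2.62 for EHD2 and 0.24 to 0.57 for PACSIN2. CAV2 passed an FDR of 0.05 with DESeq2 and both limma fits, and CAVIN2 with DESeq2. The number of genes higher at T16, 5 in edgeR, was 594 with DESeq2 and 67 and 51 with limma on log2(TPM + 1) and log2(TPM + 0.1). The number lower, 1 in edgeR, was 433 with DESeq2, 36 and 32 with limma, 4 with no count filter and 2 with a filter of 50 counts. Coat genes past the FDR, 1 in edgeR, were 3 with DESeq2 and 2 with each limma fit. The other listed genes past it, 0 in edgeR, were 7 with DESeq2 and 1 with limma on log2(TPM + 1). In the replicate block fit, CAV1 had 5.93 (edgeR FDR 0.331), and 0 genes higher, 0 lower and 0 coat genes passed. Leaving out each library in turn gave 0 to 2 genes higher, 0 to 1 lower, 0 to 1 coat genes and 0 other listed genes. Leaving out T0 replicate 1 and T16 replicate 2 together, chosen after seeing the data, gave 0 genes higher, 0 lower and 0 coat genes, with CAV1 at 6.39 (edgeR FDR 0.0982). The median log2 fold change of all genes, -0.08 in edgeR, moved by -0.14 with no count filter, -0.11 and -0.20 with limma, and 0.11 without T0 replicate 1. The causes were not tested. Transcript shares of counts gave the directions of TPM shares. Some directions reversed without T0 replicate 1. For CAV1, the difference in share went from 3.90 to -10.47 percentage points for XM_024990412.1 and from -8.96 to 3.36 for XM_005205391.4. For PACSIN2, it went from 2.76 to -0.951 for XM_005207423.4. With 3 libraries a group and a common biological coefficient of variation of 0.752, edgeR seldom found 4-fold changes in simulated data.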
